A study of Mus musculus with 66 samples.

Results

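The mRNA of EN organoids, the differentiated culture of mouse small intestine, was compared with that of CV organoids, the stem cell enriched culture. All 9481 transcripts (8978 gene symbols) in the deposited RNA table were taken, and the 92 spike-in rows among its 9573 rows were left out. Each culture had 4 RNA libraries (EN1 to EN4 and CV1 to CV4), of 66 libraries in the whole series.

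Organoids are small hollow spheres of epithelium that grow from intestinal crypts in a gel. The line carried a GFP and diphtheria toxin receptor reporter at 1 of its Lgr5 alleles (Lgr5 GFPDTR/+), and both cultures came from it. ENR, the maintenance medium, holds epidermal growth factor, Noggin and R-Spondin-1, the last as 5% conditioned medium. CV organoids grew in ENR with 3 µM CHIR99021 and 1 mM valproic acid, and EN organoids grew in ENR from which R-Spondin-1 was left out. The cultures therefore differed in R-Spondin-1, in both compounds and, by the study's methods, in their time in the medium, and these cannot be told apart. The labels do not say whether the libraries of a culture came from separate cultures, so p-values measure the spread between these libraries, which may be technical.

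Wnt signals keep the stem cells at the base of the intestinal crypt dividing. R-spondins strengthen these signals through Lgr receptors, and CHIR99021 switches the pathway on inside the cell by inhibiting the kinases GSK3A and GSK3B, which mark β-catenin for destruction. Valproic acid inhibits histone deacetylases. Cells that leave the crypt stop dividing and become enterocytes, which absorb nutrients through a brush border of microvilli, or secretory cells: mucus-making goblet cells, hormone-making enteroendocrine cells, antimicrobial Paneth cells and chemosensing tuft cells.

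The markers went with the labels of both cultures for stem cells and enterocytes. Lgr5 (NM_010195.2), the R-spondin receptor that marks crypt stem cells, had 90.7, 90.4, 85.2 and 94.0 CPM in CV1 to CV4 and 2.28, 0.642, 2.14 and 2.16 CPM in EN1 to EN4. CPM scales the counts of a library to a fixed total after TMM normalization, which scales libraries to a common composition. The 4 EN values lay far below the 4 CV values, and EN2 held only 3 counts. The log2 fold change of EN over CV was -5.55 (standard error 0.12, adjusted p = 1.9e-15, edgeR's quasi-likelihood test with Benjamini-Hochberg adjustment).

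Alpi (NM_001081082.2), the alkaline phosphatase of the brush border, had 142, 157, 166 and 162 CPM in CV1 to CV4 and 610.4, 629, 679.8 and 619.6 CPM in EN1 to EN4. Hnf4g (NM_013920.2), a nuclear receptor of enterocytes, had 119, 117, 126 and 128 CPM in CV1 to CV4 and 1285, 1360.3, 1522 and 1458 CPM in EN1 to EN4. For both genes every EN library lay above every CV library, by a log2 fold change of 2.02 (standard error 0.06, adjusted p = 3.6e-14, edgeR) for Alpi and 3.52 (standard error 0.05, adjusted p = 5.1e-17, edgeR) for Hnf4g. Alpi was thus already present in CV, at 114 ± 7.69 TPM (SD, n = 4) against 371 ± 15.6 TPM in EN. TPM is the authors' measure of transcript abundance, which corrects for transcript length and so can be compared between genes.

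All 6 measured transcripts of the 6 stem cell markers were lower in EN, with summed levels of 489 to 549.9 CPM in CV and 39.2 to 44.5 CPM in EN. The 4 transcripts of the proliferation markers Mki67 and Top2a were lower too, from 628 to 660.2 CPM in CV and from 21.6 to 28.5 CPM in EN. All 7 enterocyte markers were higher in EN, with summed levels of 5884 to 6140.0 CPM in CV and 41229 to 42797 CPM in EN. Markers of goblet, enteroendocrine and tuft cells were higher in EN as well. The goblet markers summed to 797 to 895 CPM in CV and 8120.4 to 8950.5 CPM in EN, the enteroendocrine markers to 24.1 to 35.9 and 1283 to 1763 CPM, and the tuft markers to 0.539 to 2.41 and 55.9 to 74.4 CPM. Of 3 Paneth markers 1 was higher and 2 lower. In such bulk samples, fewer cells of a type and less RNA per cell cannot be told apart.

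**Figure D1:**
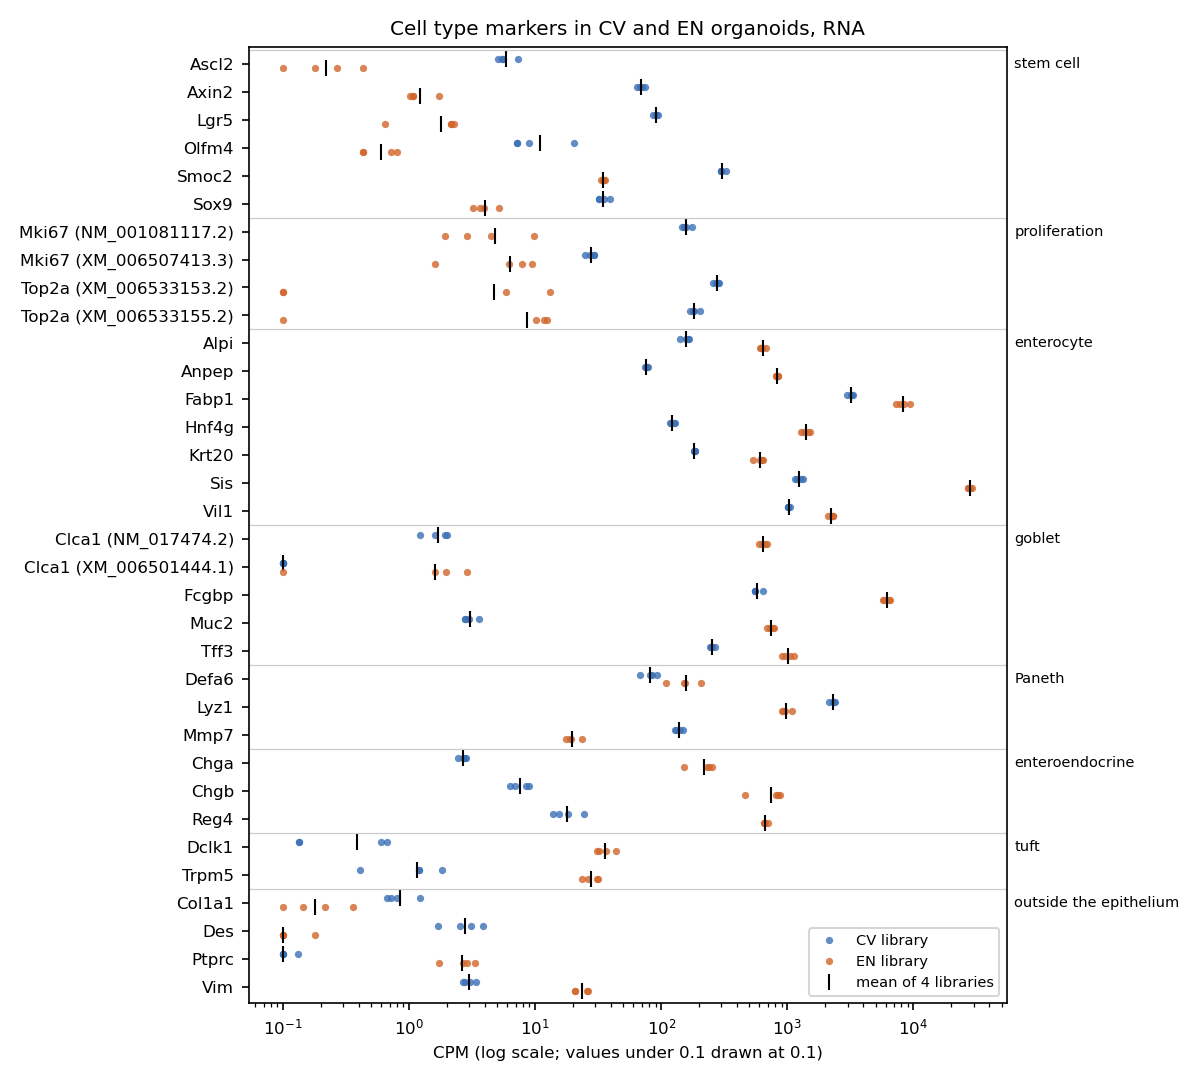
CPM of each measured marker transcript on a log axis, grouped by the cell type it marks, with 1 point per library (blue CV, orange EN), a black tick at the mean of 4, and values under 0.1 drawn at 0.1. All 6 stem cell transcripts lie lower in EN and all 7 enterocyte transcripts higher, while Paneth markers go both ways.

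Of 9288 transcripts tested, 7096 (76.4%) differed between EN and CV at an adjusted p under 0.01, 3267 (35.2%) with a higher and 3829 (41.2%) with a lower level in EN. A change was also tested against a minimum of 2-fold with edgeR's glmTreat, which left 2554 transcripts (27.5%), 1105 higher (11.9%) and 1449 lower (15.6%). The 4 EN values lay above all 4 CV values for 3241 transcripts (34.9%) and below them for 3861 (41.6%). The CV libraries held 6636675 to 7354602 counts in transcripts and the EN libraries 5630951 to 8859744, so 3 counts stand for 0.36 to 0.64 CPM. Libraries of a culture correlated with r of 0.978 to 0.985 over transcripts and libraries of different cultures with 0.769 to 0.784, and the first principal component of the 8 libraries held 88.4% of the variance. Where a change is given from one CPM value to another, both are means of 4 libraries. Among transcripts with a mean of at least 10 CPM in the culture, the SD between libraries had a median of 5.83% of the mean in CV and 7.16% in EN. With so many transcripts past the test, the shares over all transcripts are the background for each group of genes below. A group count near 35.2% higher and 41.2% lower is what all transcripts gave.

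How the calls divide into rises and falls rests on how libraries were scaled. With counts scaled to the spike-ins, 1473 transcripts were higher and 4292 lower in EN, and on the mRNA copies that the authors set from the spike-ins, 4315 were higher and 1200 lower. On log2(TPM + 1), 2268 were higher and 4985 lower. Over all transcripts the log2 fold change had a median of -0.08 with TMM, -0.49 with spike-ins, -0.34 on log2(TPM + 1) and 0.62 on copies. The size of a change is therefore known relative to the bulk of transcripts rather than per cell. For each gene group below, the relative median is its median log2 fold change minus that of all transcripts tested, and where a change of scaling turned the sign of a group's own median, that is said beside it. Of 44 groups, the relative median turned its sign in some alternative only for keratins, glycolysis, Paneth cell genes and genes of cells outside the epithelium.

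**Figure D2:**
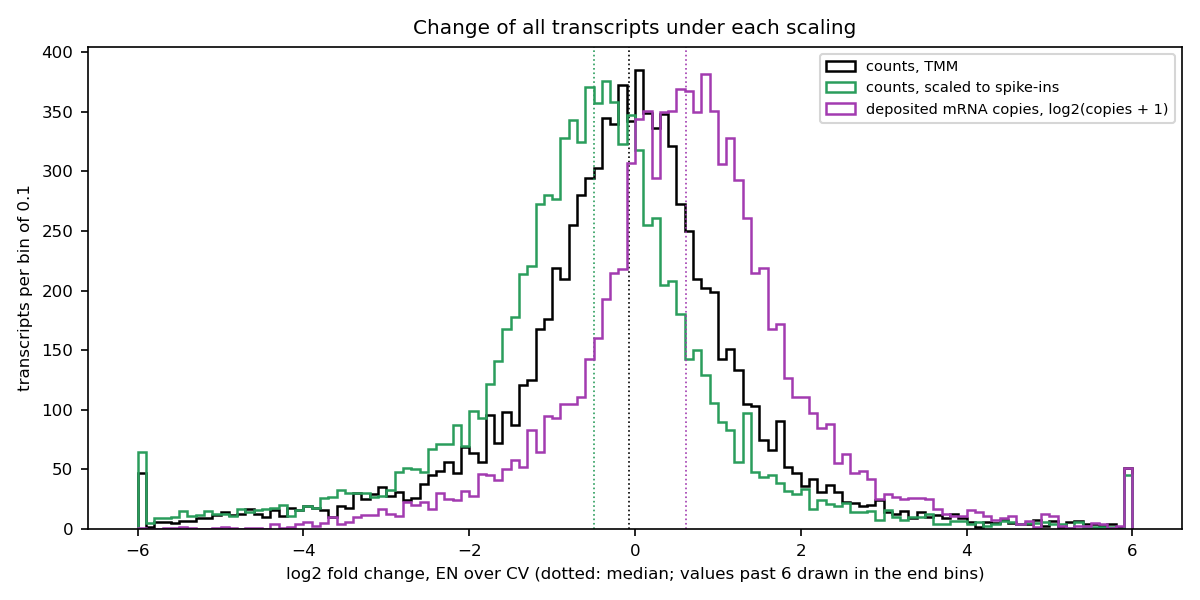
Number of transcripts per bin of 0.1 in log2 fold change of EN over CV with TMM on counts, with counts scaled to spike-ins and on the deposited copies, with dotted lines at the medians and values past 6 in the end bins. The medians lie at -0.08, -0.49 and 0.62.

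The 12 largest rises were taken among transcripts over 2-fold higher with all 4 EN values above all 4 CV values. Each also needed over 3 counts in every CV library and a mean of at least 10 CPM in EN. These 12 were Dnase1, Slc6a20a, Clca1, Zg16, Muc2, Reg1, Ccl6, Bmp3, Treh, Slc5a4b, Aqp8 and Pdzk1. Their log2 fold changes ran from 7.09 to 8.86. Dnase1, a secreted DNA-digesting enzyme, had 0.809, 0.534, 1.33 and 1.08 CPM in CV1 to CV4 and 402, 439, 488 and 457 CPM in EN1 to EN4. Slc6a20a, which takes up proline and related amino acids, had 2.29, 1.87, 1.46 and 1.45 CPM in CV1 to CV4 and 721, 704, 836 and 741 CPM in EN1 to EN4. Both were near the limit of detection in each CV library and well above it in each EN library. Reg1, a secreted C-type lectin, rose from 103, 89.3, 82.7 and 79.2 CPM in CV to 17397, 20846, 22512 and 18923 CPM in EN. Bmp3, a member of the bone morphogenetic protein family, had 5.93, 3.74, 3.71 and 3.86 CPM in CV and 803, 853, 874 and 904 CPM in EN. CV1 was the highest of the CV libraries for Bmp3, and all EN libraries lay far above it. Aqp8, a water channel, went from 2.33 to 327 CPM, and Slc5a4b, of the sodium-glucose carrier family, from 2.85 to 533 CPM. Ccl6, a chemokine, went from 0.938 to 207 CPM.

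The mirrored 12 largest falls, in transcripts with over 3 counts in every EN library, were those of Phgdh, Axin2, Defa-rs2, Uhrf1, Anxa1, Pbk, Nap1l1, Plat, Prim1, Mboat2, Lama5 and Ercc6l. Their log2 fold changes ran from -6.36 to -5.21. Phgdh, the first enzyme of serine synthesis, had 201, 203, 190.3 and 223 CPM in CV1 to CV4 and 2.41, 3.43, 2.14 and 2.16 CPM in EN1 to EN4. Anxa1, an annexin, had 138, 153, 145 and 123 CPM in CV and 2.01, 3.85, 3.39 and 1.87 CPM in EN. That neither gene overlapped between the cultures follows from the rule that picked them. Plat, the tissue plasminogen activator, fell from 121 to 3.05 CPM, and Lama5, a laminin chain of the basement membrane, from 88.8 to 2.43 CPM. Nap1l1, a histone chaperone, fell from 113 to 2.54 CPM, and Pbk, a mitotic kinase, from 50.4 to 1.03 CPM. Defa-rs2, a defensin-related transcript, fell from 757 to 14.1 CPM, and since defensin genes are near-identical copies its reads could be split among them.

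**Figure D3:**
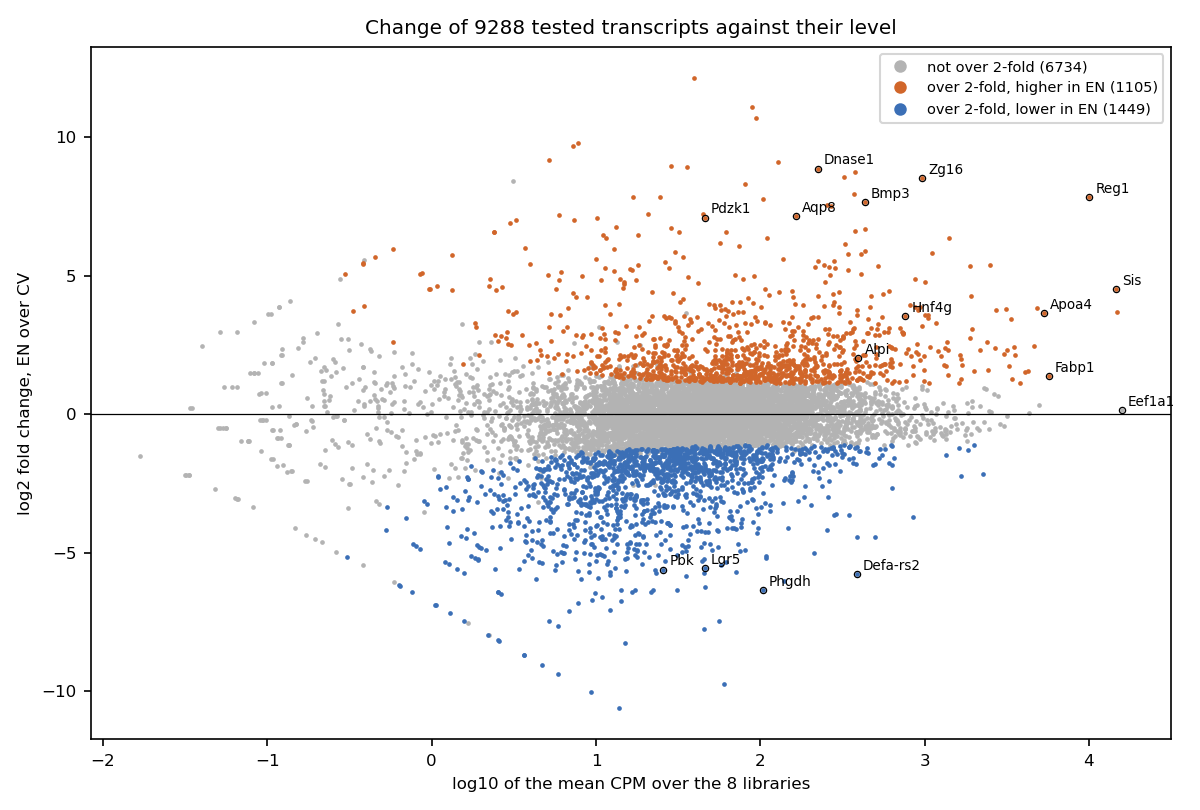
Log2 fold change of EN over CV against log10 of the mean CPM of the 8 libraries for the 9288 transcripts tested, with transcripts changed over 2-fold in colour and named genes circled. The 1105 rises include some of the most abundant transcripts (Reg1, Sis, Apoa4), and 51 of them have a mean over 1000 CPM against 6 of the 1449 falls.

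Some transcripts were at the limit of detection in 1 of the cultures. At or under 3 counts in every CV library, and over 3 in every EN library, were 35 transcripts, and the reverse held for 99. Mptx1, a pentraxin of Paneth cells, had no counts in CV and 73.0, 77.5, 80.6 and 85.1 CPM in EN1 to EN4. It was at least 809.9-fold higher in EN, taking 3 counts over the 4 CV libraries as the limit. Slc28a1, a pyrimidine nucleoside carrier, had 3 counts over all CV libraries and 4640 over all EN libraries, a 1927-fold ratio (95% counting interval 659 to 9348). Intervals of this kind cover counting error only. Slc5a4a, the neighbour in name of Slc5a4b, had 3 counts in CV and 1409 in EN, 585-fold (199.8 to 2841). Ctrb1, the chymotrypsinogen otherwise known from the pancreas, had 4 and 1751 counts, 545-fold (213 to 2004). The others of highest level in EN were BC089597, the carboxylesterase Ces1c and the serine protease Prss30.

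In the other direction, Plod2, a lysyl hydroxylase that modifies collagen, had 120.3, 125, 129 and 107 CPM in CV and 3 counts over all EN libraries, a 987-fold ratio (95% counting interval 337 to 4788). Lgals1, a galectin, had 33.8, 23.4, 31.0 and 31.3 CPM in CV and 2 counts in EN, 369-fold (102 to 3053). Nup62cl had 25.1, 26.2, 29.6 and 29.5 CPM in CV and none in EN, at least 227-fold lower there against 3 counts over the 4 EN libraries. The other transcripts with the highest CV level in this class were Chaf1b, of the chromatin assembly complex that follows DNA replication, Camsap2, Tdrp, the non-muscle myosin chain Myh10 and the kinase Fyn.

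Genes of stem cells and targets of Wnt signalling fell almost as a group. Of 20 transcripts tested, 19 were lower in EN, all 19 by over 2-fold, and the relative median was -3.65. Axin2, a target that feeds back on the Wnt pathway, had 68.1, 74.3, 64.0 and 70.6 CPM in CV1 to CV4 and 1.07, 1.71, 1.07 and 1.01 CPM in EN1 to EN4. Cd44, an adhesion receptor of crypt cells, fell from 147 to 4.59 CPM and Smoc2, a stem cell marker, from 304 to 34.8 CPM. Ascl2, a transcription factor of stem cells, was low even in CV, at 5.53, 5.47, 5.04 and 7.35 CPM, and had 6 counts over all EN libraries against 181 in CV, a 24.2-fold ratio (95% counting interval 10.9 to 66.8). Tnfrsf19, a receptor of crypt base cells, had 11.3, 12.1, 10.2 and 13.4 CPM in CV and no counts in EN, at least 97.1-fold lower. Lrig1, which also marks quiescent crypt cells, fell least, from 290.2 to 132 CPM. Olfm4, a widely used stem cell marker, had only 7.14, 8.94, 7.16 and 20.5 CPM in CV. CV4 stood apart from the other CV libraries, and all 4 lay above the 0.804, 0.428, 0.714 and 0.432 CPM of EN. Agr3 was the single member that was higher in EN, from 1.26 to 3.25 CPM, a call lost with spike-ins.

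The machinery of the Wnt pathway is the set of proteins that pass the signal on. Of 19 transcripts, 10 were higher and 6 lower in EN, against 35.2% and 41.2% of all transcripts, and 1 changed over 2-fold. The relative median was 0.26 (the group's own median was below 0 with spike-ins and on TPM). Ctnnb1, β-catenin itself, had 1410.2, 1485, 1429.6 and 1408 CPM in CV and 1591, 1597, 1635 and 1591 CPM in EN, 0.16 on the log2 scale, a sign that turned with spike-ins and on TPM. Of the kinases that CHIR99021 inhibits, Gsk3a rose from 32.8 to 61.3 CPM, a call lost with spike-ins. Gsk3b had 75.3 ± 2.2 CPM in CV and 75.0 ± 1.7 CPM in EN (SD, n = 4). The 95% interval of the log2 fold change of Gsk3b was -0.10 to 0.08 with TMM, but the change was -0.43 with spike-ins and 0.73 on copies. Fzd5, a Wnt receptor, was the member past 2-fold, from 130.0 to 453 CPM. Tcf7l2, the main factor through which β-catenin acts in the intestine, rose from 10.7 to 22.8 CPM.

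In the Notch pathway, which holds cells back from the secretory fate, 6 of 14 transcripts were higher and 3 lower in EN. Over all transcripts, 35.2% were higher and 41.2% lower. The relative median was 0.49, with an own median just below 0 with spike-ins. The receptor Notch2 fell most, from 36.5, 28.6, 28.2 and 30.1 CPM in CV to 4.96, 4.71, 3.75 and 2.74 CPM in EN. Numb, which antagonizes Notch, rose from 45.6 to 139 CPM, and the ligand Dll1 rose from 25.4 to 41.5 CPM. The γ-secretase subunits Psenen and Ncstn, which help release the active part of the receptor, rose by 1.23 and 1.02 on the log2 scale.

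The group with the lowest median of the 44 was that of cell division genes. All 50 transcripts of mitosis genes and cyclins were lower, 48 of them by over 2-fold, with a relative median of -3.84. Cdk1, the kinase that drives mitosis, had 90.7, 87.4, 102 and 103 CPM in CV1 to CV4 and 5.23, 2.57, 3.03 and 3.46 CPM in EN1 to EN4. Ccna2, its partner cyclin A2, fell from 142 to 5.37 CPM, and Ncaph and Ncapg, subunits of the condensin that packs chromosomes, fell from 60.8 to 1.8 CPM and from 66.9 to 2.43 CPM. Ccne1, the cyclin of the start of DNA replication, had 477 counts in CV and 3 in EN, a 128-fold ratio (95% counting interval 43.4 to 621). The smallest falls were those of Bub3, from 45.4 to 26.4 CPM and from 52.7 to 24.4 CPM for its transcripts, neither over 2-fold in glmTreat. Top2a, the topoisomerase that untangles chromosomes, is listed as a pair of transcripts between which reads are split. XM_006533153.2 had 0, 13.1, 0 and 5.9 CPM in EN1 to EN4 and XM_006533155.2 had 11.8, 0, 12.5 and 10.2 CPM, so a library at 0 for a form held counts of the other. In CV these forms were at 275 and 183 CPM.

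Genes of DNA replication and of the supply of its building blocks followed. Of 51 transcripts, 49 were lower in EN and 43 by over 2-fold, with a relative median of -2.60. Mcm3, of the helicase that opens DNA, had 59.3, 62.3, 61.5 and 62.9 CPM in CV1 to CV4 and 0.536, 0.428, 1.07 and 0.864 CPM in EN1 to EN4. Its partners Mcm2 and Mcm5 fell from 54.9 to 1.86 CPM and from 83.8 to 3.04 CPM. Uhrf1, which carries DNA methylation through replication, fell from 88.9 to 1.72 CPM, Prim1, a primase subunit, from 51.5 to 1.24 CPM and Rrm2, of the enzyme that makes deoxynucleotides, from 47.7 to 1.86 CPM. Chaf1b had 866 counts in CV and 6 in EN, a 116-fold ratio (53.0 to 317). Tyms, of thymidylate synthesis, had 93.5, 90.8, 93.2 and 72.3 CPM in CV and 54.8, 86.3, 83.3 and 46.5 CPM in EN and did not pass the test.

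Among cell cycle inhibitors, 4 of 8 were higher and 2 lower, with a relative median of 0.27 (own median -0.23 with spike-ins and below 0 on TPM too). The shares over all transcripts were 35.2% and 41.2%. Cdkn2b (p15) rose from 69.3, 73.0, 67.6 and 61.1 CPM in CV to 290.4, 316, 321 and 277 CPM in EN, and Btg1, an antiproliferative gene, from 132 to 386 CPM. Cdkn2c (p18) fell, from 23.1 to 4.23 CPM. Cdkn1a (p21) had 28.3 ± 0.951 CPM in CV and 30.0 ± 3.6 CPM in EN (SD, n = 4), with a 95% interval of the log2 fold change of -0.13 to 0.29. With spike-ins the change of Cdkn1a was -0.35 and on copies 0.85.

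Promoter sequences of genes that moved together are shown for the cell cycle and the brush border, as RefSeq gives them for GRCm38.p6. Each is the 250 bases before an annotated start site, 5′ to 3′ on the strand of the gene. Capitals mark 8-letter words of E2F factors (TTTCGCGC, TTTCCCGC, TTTGGCGC or TTTGCCGC), the CCAAT box (CCAAT), the cell cycle homology region or CHR (TTTGAA) and the HNF4 word (CAAAGTCCA), each searched on both strands. Uhrf1 lies at chr17:56304063-56304312 on the plus strand and is marked for E2F words and CCAAT:
Uhrf1: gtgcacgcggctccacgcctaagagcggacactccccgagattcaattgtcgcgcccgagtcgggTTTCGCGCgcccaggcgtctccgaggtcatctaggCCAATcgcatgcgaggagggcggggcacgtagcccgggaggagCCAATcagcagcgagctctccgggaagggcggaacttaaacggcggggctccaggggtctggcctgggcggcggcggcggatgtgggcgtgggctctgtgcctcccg
Mcm5 lies at chr8:75109259-75109508 on the plus strand and is marked in the same way, with overlapping E2F words on opposite strands:
Mcm5: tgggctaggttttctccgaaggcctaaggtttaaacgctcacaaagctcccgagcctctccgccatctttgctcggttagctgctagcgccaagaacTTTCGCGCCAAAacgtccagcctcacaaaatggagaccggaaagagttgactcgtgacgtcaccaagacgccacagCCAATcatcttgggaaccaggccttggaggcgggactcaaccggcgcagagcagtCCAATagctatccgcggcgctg
Cdk1 lies at chr10:69352913-69353162 on the minus strand and is marked for CHR, CCAAT and E2F words:
Cdk1: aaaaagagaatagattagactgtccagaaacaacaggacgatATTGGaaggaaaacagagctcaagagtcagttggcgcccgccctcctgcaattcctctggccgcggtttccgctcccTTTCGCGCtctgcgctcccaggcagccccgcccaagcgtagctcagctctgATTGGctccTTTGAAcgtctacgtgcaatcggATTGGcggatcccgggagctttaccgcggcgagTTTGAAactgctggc
Alpi lies at chr1:87101607-87101856 on the minus strand and is marked for the HNF4 word:
Alpi: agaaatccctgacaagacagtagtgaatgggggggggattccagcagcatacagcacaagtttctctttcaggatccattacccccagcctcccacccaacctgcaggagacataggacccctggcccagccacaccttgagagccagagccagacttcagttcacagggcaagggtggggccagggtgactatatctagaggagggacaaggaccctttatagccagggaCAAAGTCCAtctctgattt
Treh lies at chr9:44672983-44673232 on the plus strand and is marked for the HNF4 word:
Treh: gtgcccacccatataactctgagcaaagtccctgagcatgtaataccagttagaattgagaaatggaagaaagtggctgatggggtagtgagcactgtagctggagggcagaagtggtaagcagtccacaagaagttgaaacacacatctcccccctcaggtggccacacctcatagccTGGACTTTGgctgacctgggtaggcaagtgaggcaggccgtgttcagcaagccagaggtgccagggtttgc

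A promoter window of 300 bases (250 before and 50 after the start) was found for 7003 of the 8978 symbols. The E2F words were in 31.4% of 51 windows of the replication genes, against 2.26% of all 32851 windows, 4.04% of the 8781 windows of genes tested, 6.51% of the 1368 windows of genes with a fall over 2-fold and 2.2% of the 1135 windows of genes with such a rise. TTTGAA was in 75.0% of 40 windows of the mitosis genes against 17.9% of all and 12.04% of those of genes tested, and CCAAT in 70.0% against 37.4% and 37.6%. CAAAGTCCA was rare: 0.475% of all windows held it, 0.569% of those of genes tested, 2.11% of those of risen genes, 0.292% of those of fallen genes and 14.0% of 43 windows of cytochromes P450. Of 26 windows of brush border genes only 2 held it (7.69%), those of Alpi and Treh printed above. The word CTTTGAT of TCF and LEF factors was in 3.65% of the windows of fallen genes, 2.47% of those of genes tested and 3.73% of all. TTTATGG, of CDX factors, was in 1.76% of the windows of risen genes, 1.72% of those of genes tested and 2.75% of all. Genes can have several windows, and a match is a string of letters, not a shown binding site.

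The genes that build ribosomes in the nucleolus were lower in EN almost throughout: 70 of 73 transcripts fell, 49 by over 2-fold, with a relative median of -1.59. Gnl3 (nucleostemin) had 90.0, 96.2, 94.0 and 81.2 CPM in CV1 to CV4 and 9.51, 9.42, 8.21 and 8.49 CPM in EN1 to EN4. Rrp1b fell from 48.9 to 4.98 CPM, Nop56, of the box C/D particles that methylate ribosomal RNA, from 138 to 19.5 CPM and Polr1e, of RNA polymerase I, from 31.1 to 3.93 CPM. Of 74 transcripts of the ribosomal proteins themselves, 68 were lower in EN and 3 by over 2-fold, with a relative median of -0.53 (on the deposited copies the group's own median was 0.24, above 0). They took 24.1% to 24.5% of all TPM in CV and 12.4% to 13.1% in EN. Rps2 fell most, from 2666, 2596, 2454 and 2702 CPM in CV to 1099, 1087, 1055 and 1013 CPM in EN. Rpsa and Rps21 fell from 2763 to 1263 CPM and from 852 to 393 CPM. Ribosomal protein genes have many near-identical pseudogenes, so their reads may be split.

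Other genes of protein synthesis were also lower. All 20 changed transcripts of the 21 for cytosolic aminoacyl-tRNA synthetases, which load tRNAs, were lower, with Vars falling most, from 151 to 27.9 CPM. Gars and Farsb fell from 299 to 97.6 CPM and from 198 to 65.5 CPM. Of 63 transcripts of translation factors and their regulators, 44 were lower and 9 higher, a relative median of -0.62 (the own median was 0.07 on copies). Eif4e3 fell from 26.3 to 3.05 CPM and Eif4ebp1 from 42.8 to 13.5 CPM. Eif4a2, an RNA helicase of initiation, rose from 411 to 748 CPM, a call lost with spike-ins. For mitochondrial ribosomal proteins, 53 of 80 were lower and 7 higher, 4 of the falls by over 2-fold (own median 0.37 on copies). Mrps6 fell from 17.9 to 6.5 CPM. Mrpl27 rose from 32.6 to 55.3 CPM, a call lost with spike-ins. For splicing factors and hnRNPs, 62 of 84 were lower and 6 higher (own median 0.11 on copies). Snrpd1, Snrpf and Snrpg, core proteins of the spliceosome, fell from 62.7 to 13.8 CPM, from 40.8 to 8.43 CPM and from 82.3 to 18.5 CPM. Prpf31 and Prpf40b fell from 129 to 25.1 CPM and from 24.6 to 4.86 CPM. Lsm14b rose from 47.6 to 80.0 CPM, a call lost with spike-ins.

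Serine, one-carbon and nucleotide synthesis, the supply route of growing cells, had 27 of 29 transcripts lower in EN and 22 by over 2-fold, with a relative median of -2.50. After Phgdh, described above, Ctps fell from 64.0 to 3.66 CPM, Psat1, the next step of serine synthesis, from 169 to 11.2 CPM and Srm, which makes spermidine, from 20.7 to 1.39 CPM. Aldh1l1, which oxidizes 10-formyltetrahydrofolate, rose, with 127, 126, 130.0 and 119 CPM in CV and 251, 244, 219 and 251 CPM in EN. Adss had 257 CPM in CV and 251 CPM in EN, with a 95% interval of -0.12 to 0.06 on the log2 scale.

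Among chaperones, 20 of 26 transcripts were lower and 2 higher (relative median -1.16). Hsp90aa1 fell from 771 to 223 CPM and Hspd1, the mitochondrial chaperonin, from 940.3 to 279 CPM. Hspb1, a small heat shock protein, had 20.6, 15.7, 19.2 and 19.0 CPM in CV and none in EN, at least 154-fold lower. Hspa8, the abundant constitutive chaperone, had 4270.4 ± 70.2 CPM in CV and 4391 ± 139 CPM in EN (SD, n = 4). Its log2 fold change was -0.38 with spike-ins and 0.98 on copies. Hspa1a, a stress-induced form, fell from 5.84 to 1.02 CPM, and the co-chaperone Bag3 rose from 5.85 to 15.1 CPM. Of 39 proteasome transcripts, 27 were lower and 3 higher (own median 0.42 on copies). The 3 that were higher are the subunits of the immunoproteasome, which shapes peptides for antigen presentation. Psmb10 had 17.2, 17.9, 14.7 and 15.7 CPM in CV and 113, 120.1, 112 and 115 CPM in EN, and Psmb8 and Psmb9 rose from 8.54 to 20.1 CPM and from 8.77 to 16.4 CPM. Psmd14, which removes ubiquitin from substrates, fell from 229 to 94.8 CPM.

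Histone deacetylases include the targets of valproic acid, which CV but not EN held. Of 8 transcripts, 4 were lower in EN and 2 higher (own median 0.31 on copies), against 41.2% lower and 35.2% higher over all transcripts. Hdac2 fell from 144, 150.2, 154 and 145 CPM in CV to 42.3, 48.0, 40.7 and 42.9 CPM in EN, and Hdac1 and Hdac6 from 44.7 to 16.3 CPM and from 21.8 to 8.61 CPM. Hdac5 rose, from 34.5 to 70.8 CPM. Among Polycomb proteins and H3K27me3 demethylases, which place and remove that repressive mark, 13 of 22 were lower and 6 higher (own median 0.21 on copies). Ezh1 rose from 51.4 to 86.0 CPM, while the paired methyltransferase Ezh2 fell from 37.8 to 24.2 CPM, a sign that turned on copies (0.10). The core subunit Suz12 fell from 164 to 76.2 CPM, Cbx6 from 50.6 to 9.17 CPM and the histone-binding subunit Rbbp7 from 256, 269.6, 291 and 276 CPM in CV to 101, 103, 92.8 and 103 CPM in EN. Both H3K27 demethylases rose, Kdm6b from 9.51 to 35.3 CPM and Kdm6a from 53.8 to 95.6 CPM.

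**Figure D4:**
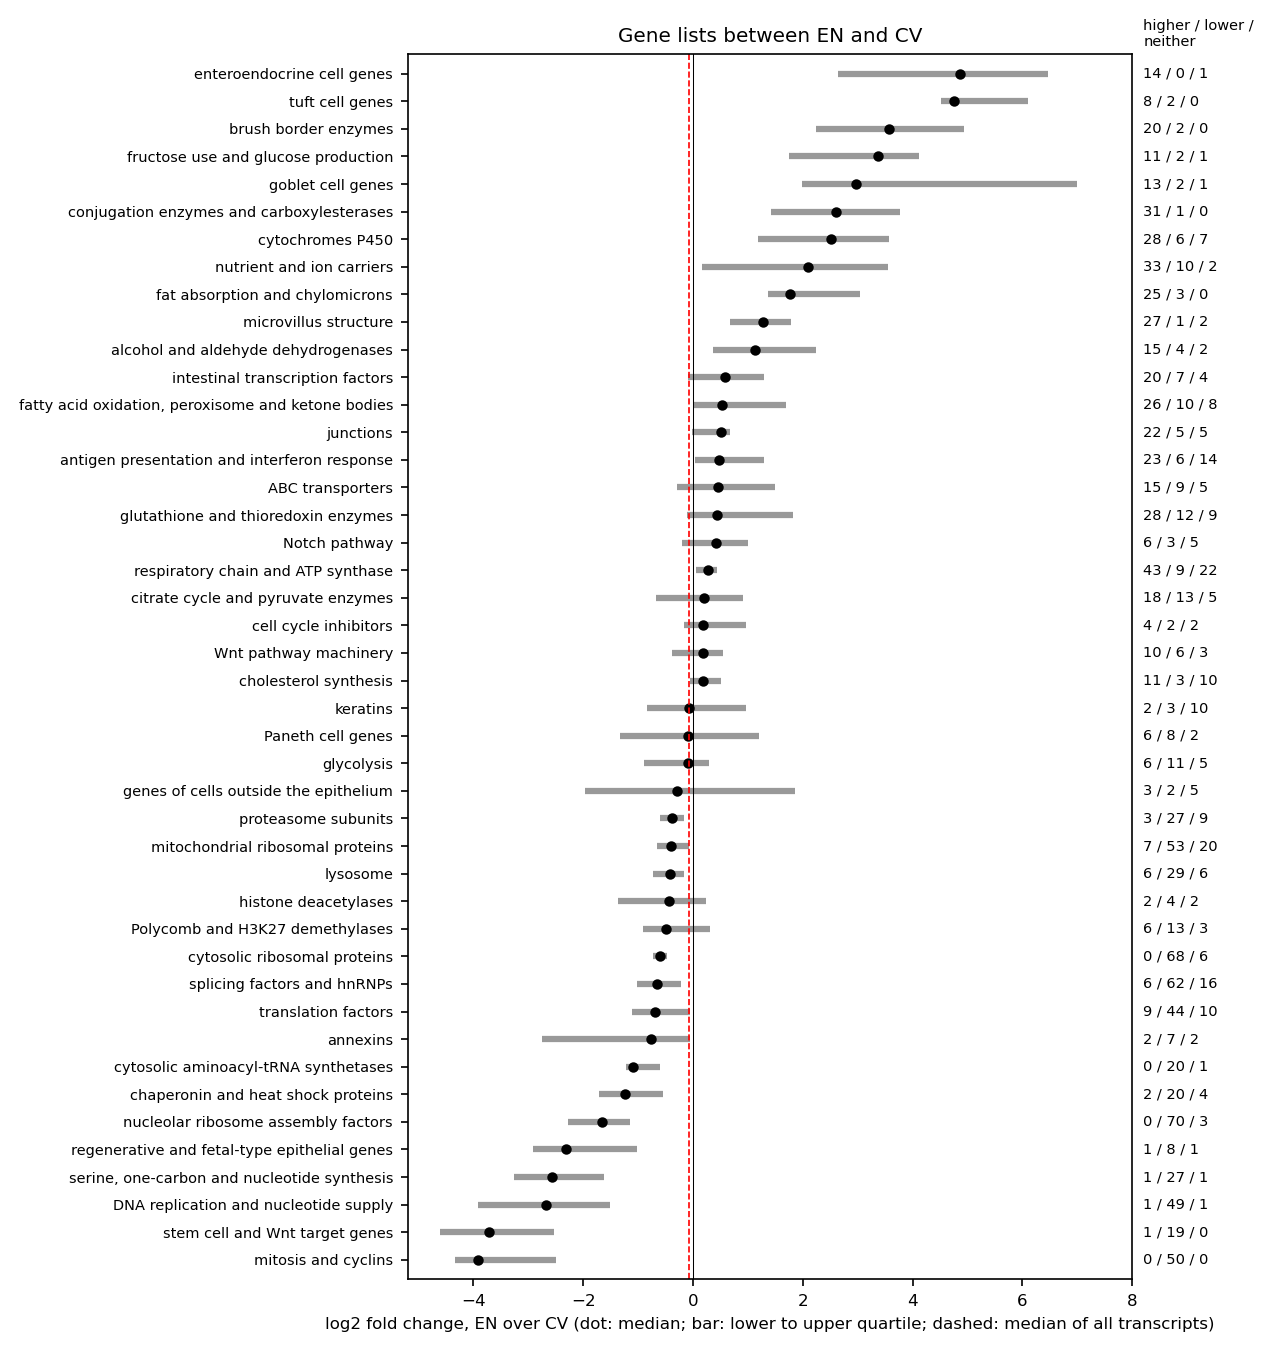
Median log2 fold change of EN over CV for each of the 44 gene groups (dots), with the range from the lower to the upper quartile of the members (grey bars), the median of all transcripts (dashed line) and the numbers higher, lower or neither. Mitosis genes and stem cell genes lie lowest, and enteroendocrine, tuft and brush border genes highest.

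Of 31 transcripts of intestinal transcription factors, 20 were higher in EN, 9 by over 2-fold, and 7 lower (relative median 0.65). Besides Hnf4g, the largest rises were Creb3l3, from 122, 119, 123 and 124 CPM in CV to 871, 846, 924 and 867 CPM in EN, Rxra, from 46.5 to 235 CPM, and Ppara, from 50.9 to 195 CPM. Creb3l3 and Ppara act in lipid metabolism, and Rxra is a partner of Ppara and of the vitamin D receptor Vdr, which rose from 62.4 to 193 CPM. Hnf4a, the close relative of Hnf4g that binds the same sites, had 732, 705, 727 and 740.0 CPM in CV1 to CV4 and 719.9, 695, 693 and 704 CPM in EN1 to EN4. These ranges overlapped, and the 95% interval of the log2 fold change was -0.11 to 0.02. The values hold for the Hnf4a transcript measured here and do not cover other isoforms of the gene. The difference between the relatives itself was not tested. Cdx2, the factor of intestinal identity, had 232 ± 3.36 CPM in CV and 212 ± 12.3 CPM in EN (SD, n = 4), a change of -0.13, which was above 0 on copies (0.71). Foxa2 and Tead1, of the Hippo pathway, fell from 11.7 to 4.49 CPM and from 9.1 to 3.06 CPM.

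Genes of the brush border list, most of them enzymes that digest food there, rose almost without exception. Of 22 transcripts, 20 were higher in EN, all 20 by over 2-fold, and the relative median was 3.64. They took 0.123% to 0.134% of all TPM in CV and 1.23% to 1.3% in EN. The count and share include Cgref1, which is not such an enzyme, at 81.7 TPM in CV and 548 TPM in EN. Sis, sucrase-isomaltase, had 1278, 1148, 1182 and 1333 CPM in CV1 to CV4 and 27305, 26888, 28284 and 29273 CPM in EN1 to EN4. Treh, which splits trehalose, had 2.83, 2.4, 2.52 and 3.13 CPM in CV and 508, 485, 540.1 and 504 CPM in EN. Lct, lactase, rose from 11.6 to 249 CPM, and Mgam, which finishes starch digestion, from 1322 to 5733 CPM. Among peptidases, Mme rose from 33.7 to 2775 CPM, Ace from 9.59 to 440.4 CPM, Ggt1 from 12.1 to 667 CPM, Anpep from 76.1 to 823 CPM and Dpp4 from 82.0 to 622 CPM. The members that fell were Akp3, another alkaline phosphatase of mouse intestine, and the peptidase Mep1a. Akp3 had 16.8, 16.2, 18.7 and 20.1 CPM in CV and 2.14, 2.57, 2.14 and 1.87 CPM in EN, opposite to Alpi. Mep1a fell from 122 to 76.7 CPM, which turned to a rise on copies (0.09).

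Of the proteins that shape microvilli, 27 of 30 transcripts were higher, 16 by over 2-fold, and 1 lower (relative median 1.35). Vil1, villin, rose from 1021 to 2235 CPM, Myo1a, the motor that ties the actin core to the membrane, from 626 to 2067 CPM and Slc9a3r1, a scaffold of membrane proteins, from 124 to 435 CPM. Cobl, which nucleates actin, rose from 16.9 to 173 CPM in the transcript NM_001282994.1, and the scaffold Pdzd3 from 6.81 to 68.5 CPM. Pdzk1, a scaffold that holds carriers in the membrane, had 0.943, 0.534, 0.53 and 0.602 CPM in CV1 to CV4 and 94.5, 93.1, 81.0 and 95.3 CPM in EN1 to EN4, near the limit of detection in CV. Vill, a relative of villin, was the member that fell, with 93 counts in CV and 9 in EN, a 8.29-fold ratio (95% counting interval 4.19 to 18.7). Of 31 keratin transcripts, 15 passed the filter on low counts, of which 2 were higher and 3 lower (relative median 0.00, own median -0.07, and 0.17 on copies). These 15 include keratins with very few counts, such as Krt83 (none in CV and 3 in EN) and Krt14 (5 and 1), which enter the median. Krt20, of mature cells, rose from 182, 184, 182 and 185 CPM in CV to 630.1, 645, 534 and 606 CPM in EN, and Krt19 rose from 1109.7 to 1466 CPM, which turned with spike-ins. Krt18, Krt7 and Krt23 fell from 544 to 344 CPM, from 156 to 95.1 CPM and from 56.7 to 40.9 CPM, but all of these were above 0 on copies. Krt8, with the highest TPM of the keratins, had 3242 ± 42.6 CPM in CV and 3085 ± 215 CPM in EN (SD, n = 4), and did not pass the test. Of 11 annexin transcripts 7 were lower and 2 higher (own median 0.07 on copies), and Anxa13, an annexin of epithelial transport, rose from 407 to 1991 CPM.

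Fat absorption genes rose with few exceptions. Of 28 transcripts, 25 were higher, 22 by over 2-fold, and 3 lower, with a relative median of 1.85. They took 2.22% to 2.34% of all TPM in CV and 6.29% to 6.93% in EN. Cd36, a fatty acid receptor, had 13.6, 11.5, 11.1 and 11.9 CPM in CV1 to CV4 and 505, 541, 609.7 and 551 CPM in EN1 to EN4. The apolipoproteins of chylomicrons rose, Apoa1 from 91.4 to 3683 CPM, Apoc3 from 17.7 to 477 CPM and Apoa4 from 779 to 9834 CPM. Dgat1, the last step of triglyceride synthesis, rose from 165 to 1290.5 CPM. Fabp1, a fatty acid binding protein, was among the most abundant transcripts of both cultures, with 16366 ± 523 TPM in CV and 33035 ± 2589 TPM in EN (SD, n = 4). Scarb1, the HDL receptor, fell from 32.7, 32.4, 35.3 and 35.1 CPM in CV to 4.82, 2.78, 3.39 and 3.74 CPM in EN, and Acsl3, an acyl-CoA synthetase, from 335 to 92.7 CPM. Of cholesterol synthesis, 11 of 24 transcripts were higher and 3 lower, with a relative median of 0.25 (own median -0.24 with spike-ins and below 0 on TPM too). Hmgcs1, an early step, had 612 ± 35.9 and 602 ± 18.1 CPM (SD, n = 4), but its log2 fold change was -0.43 with spike-ins and 0.85 on copies.

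Of 45 transcripts of nutrient and ion carriers, 33 were higher in EN, 25 by over 2-fold, and 10 lower, 6 by over 2-fold (relative median 2.16). The amino acid carrier Slc6a19 rose from 9.13 to 649.8 CPM, the peptide carrier Slc15a1 from 11.3 to 477 CPM and the glucose carrier Slc2a2 from 47.4 to 902 CPM. Slc51a and Slc51b, which together export bile acids, rose from 2.29 to 70.6 CPM and from 0.546 to 22.3 CPM. Carriers that were lower in EN included those that feed growing cells. Slc7a5, which imports leucine, had 28.0, 28.3, 29.7 and 27.6 CPM in CV and 2.55, 1.71, 1.61 and 1.73 CPM in EN. Slc1a5, which imports glutamine, fell from 101 to 12.6 CPM, Slc2a1, the general glucose carrier, from 111 to 57.1 CPM and Slc29a1, a nucleoside carrier, from 97.2 to 9.28 CPM. Slc12a2, the chloride importer of secreting crypt cells, fell from 948 to 43.7 CPM. ABC transporters split, with 15 of 29 higher and 9 lower, against 35.2% and 41.2% of all transcripts. The sterol exporter pair Abcg5 and Abcg8 rose from 161 to 711 CPM and from 96.2 to 509 CPM, and Abcc4 and Abcc1 fell from 46.8 to 3.22 CPM and from 97.4 to 10.4 CPM. Abcc6 rose from 3.68 to 60.8 CPM. Abcb4, which exports phospholipid, had 19 counts in CV and none in EN, at least 5.08-fold lower.

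**Figure D5:**
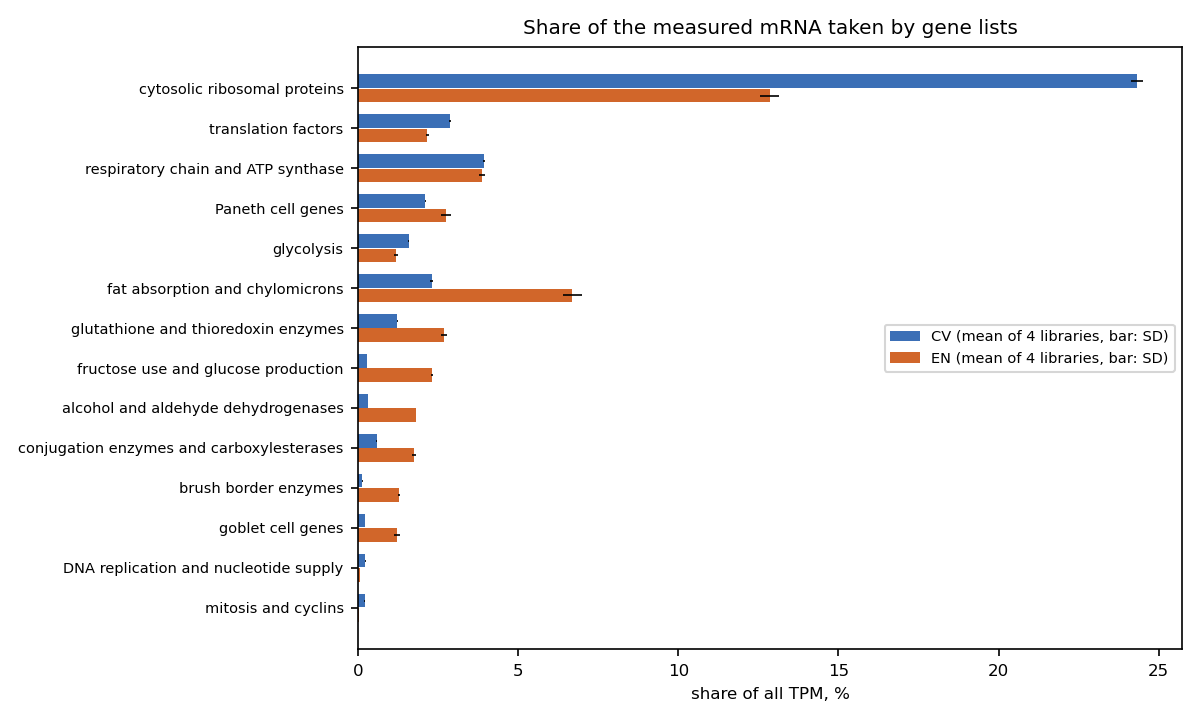
Share of all TPM taken by 14 gene groups, in percent, as the mean of 4 libraries with its SD (blue CV, orange EN). Cytosolic ribosomal proteins take a smaller share in EN, and fat absorption, fructose, brush border and detoxification genes a larger one.

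Sugar metabolism changed by branch. Glycolysis, which all cells use, had 6 of 22 transcripts higher and 11 lower, against 35.2% and 41.2% of all transcripts. In this group, 4 of the falls were over 2-fold (relative median -0.02, which turned its sign on copies and without some of the libraries, and own median 0.64 on copies). The hexokinases Hk1 and Hk2, which trap glucose in the cell, fell from 136, 135, 132 and 126 CPM in CV to 12.7, 10.7, 9.63 and 13.1 CPM in EN and from 151 to 22.3 CPM. Ldhb had 4.58, 5.47, 5.7 and 4.46 CPM in CV and no counts in EN, at least 41.5-fold lower, while Ldha had 1770.0 CPM in CV and 2135 CPM in EN, a rise that turned to a fall with spike-ins and on TPM. Eno3 rose from 4.76 to 7.62 CPM, a call lost with spike-ins and on both TPM scales. Genes of fructose use and glucose production rose: 11 of 14 transcripts were higher, all 11 by over 2-fold, and 2 lower, with a relative median of 3.44. Khk, the fructokinase, rose from 175 to 1311 CPM in its main transcript, Fbp1 from 10.6 to 419 CPM and G6pc, which releases glucose, from 22.3 to 427 CPM. Pck1, of the cytosol, had 0.674, 0.4, 0.795 and 0.482 CPM in CV and 85.6, 90.4, 81.3 and 100.2 CPM in EN. Pck2, the mitochondrial form of the same enzyme, went the other way, from 57.8, 51.7, 58.2 and 61.4 CPM in CV to 14.1, 12.6, 14.4 and 17.3 CPM in EN.

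In the citrate cycle and around pyruvate, 18 of 36 transcripts were higher and 13 lower (relative median 0.28, own median -0.23 with spike-ins and below 0 on TPM too). The shares over all transcripts were 35.2% higher and 41.2% lower. The cytosolic isocitrate dehydrogenase Idh1 rose from 490.4, 499, 519 and 442 CPM in CV to 3172, 3337, 3471 and 3235 CPM in EN, and the mitochondrial Idh2 fell from 382, 365, 397 and 389 CPM to 97.0, 104, 94.2 and 102 CPM. The cultures did not overlap for either form. Of all transcripts tested, 34.9% likewise had all 4 EN values above all 4 CV values and 41.6% had them below. Me2, a malic enzyme of mitochondria, rose from 139 to 506 CPM, and Got1, an aspartate transaminase, fell from 62.0 to 15.3 CPM. Of 74 transcripts of the respiratory chain and ATP synthase, 43 were higher and 9 lower, but only 1 changed over 2-fold (relative median 0.34, own median -0.15 with spike-ins and below 0 on TPM too). That one was Cox7a1, a tissue-specific subunit of cytochrome oxidase, with 9.84, 7.61, 9.15 and 8.92 CPM in CV and 181, 171, 163 and 127 CPM in EN. Atp5o, of ATP synthase, rose from 202 to 419 CPM, and Ndufc2, of complex I, fell from 128 to 71.2 CPM. Of 44 transcripts for fatty acid oxidation, peroxisomes and ketone bodies, 26 were higher and 10 lower. Peroxisomal genes were among the rises: Cat, catalase, from 171 to 1308 CPM, Ephx2 from 128 to 925 CPM, Scp2 from 389 to 2369 CPM and Hsd17b4 from 253 to 881 CPM. The ketone enzymes Acat1 and Bdh1 fell, from 254 to 95.7 CPM and from 273 to 112 CPM.

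Detoxification genes were higher in EN in most families. Of 41 transcripts of cytochromes P450, 28 were higher, 27 by over 2-fold, and 6 lower (relative median 2.59). Cyp3a11, the main drug-oxidizing form of mouse liver and gut, had 121, 116, 114 and 114 CPM in CV1 to CV4 and 4168, 4821, 5219 and 5258 CPM in EN1 to EN4. Cyp2c29 rose from 8.4 to 858 CPM and Cyp2j6 from 376 to 5102 CPM. Cyp2c55, by contrast, fell from 995 to 278 CPM, and Cyp39a1, which hydroxylates 24-hydroxycholesterol, from 6.99 to 0.709 CPM. Cyp2c37 had 4 counts in CV and 499 in EN, a 155-fold ratio (95% counting interval 60.3 to 573). Of 32 transcripts of conjugation enzymes and carboxylesterases, 31 were higher, 23 by over 2-fold (relative median 2.67). Ces1d rose from 14.4 to 552 CPM, Ugt2a3 from 26.9 to 575 CPM and Sult6b2 from 10.5 to 169.9 CPM, while Sult1c2 fell from 30.9 to 15.2 CPM. Among alcohol and aldehyde dehydrogenases, 15 of 21 were higher and 4 lower, and Adh1 and Aldh1a1, which oxidize retinol and retinal, rose from 635 to 9018 CPM and from 422 to 5799 CPM. Aldh4a1, of proline breakdown, fell from 50.5 to 2.14 CPM. Many of these genes lie in families of close relatives, among which reads may be split.

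In glutathione and thioredoxin enzymes, 28 of 49 were higher and 12 lower (relative median 0.52). Gsta1, a glutathione transferase, had 192, 176, 176 and 213 CPM in CV1 to CV4 and 3597, 3578, 3583 and 3846 CPM in EN1 to EN4. Gstm4 (XM_006501021.3) had no counts in CV and 262 in EN, at least 109-fold higher, while its other transcript rose from 7.46 to 23.5 CPM. Gsta2 rose from 1.53 to 112 CPM and Mgst1 from 423 to 2229 CPM. Gpx2, the glutathione peroxidase of the crypt, fell, from 175, 188, 178 and 196 CPM in CV to 8.98, 10.9, 9.1 and 13.2 CPM in EN. Prdx4, a peroxiredoxin of the secretory pathway, fell from 61.3 to 8.07 CPM, and Gsr, which regenerates glutathione, from 466 to 161 CPM.

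The secretory lineages are taken by cell type. Of 16 goblet cell transcripts, 13 were higher in EN, all 13 by over 2-fold, and 2 lower (relative median 3.04). Muc2, the gel-forming mucin, had 2.96, 3.6, 2.78 and 2.77 CPM in CV1 to CV4 and 723, 782, 767 and 686 CPM in EN1 to EN4. Fcgbp, which binds to mucus, was already at 549, 551, 550.3 and 637 CPM in CV and reached 5755, 5821, 6379 and 6560.3 CPM in EN, and Tff3 rose from 253 to 1005 CPM. Atoh1, the factor that commits cells to the secretory fate, rose from 5.59 to 22.0 CPM. Of 15 enteroendocrine transcripts, 14 were higher, all by over 2-fold (relative median 4.95). Chgb, a granule protein, had 6.33, 8.41, 6.89 and 8.92 CPM in CV and 868, 838, 465 and 812 CPM in EN, and EN3 stood below the other EN libraries. The hormone genes Gcg, Gip, Ghrl and Nts rose from 0.474 to 161 CPM, 12.8 to 509 CPM, 0.254 to 41.4 CPM and 0.918 to 27.1 CPM. Of 10 tuft cell transcripts, 8 were higher, all by over 2-fold. Dclk1, the tuft cell kinase, had 0.135, 0.133, 0.663 and 0.602 CPM in CV1 to CV4 and 36.5, 32.3, 30.7 and 43.8 CPM in EN1 to EN4, and Trpm5, their taste channel, rose from 1.15 to 27.9 CPM. The members of this list that fell, Plcg2 from 51.4 to 28.3 CPM and Krt23, are not limited to tuft cells.

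Paneth cell genes did not move together. Of 16 transcripts, 6 were higher and 8 lower, against 35.2% and 41.2% of all transcripts. The relative median was -0.01, which turned its sign on copies and without EN1 or EN4, and the own median was 0.66 on copies. Lyz1, lysozyme, fell from 2311, 2383, 2333 and 2129.7 CPM in CV to 914, 951, 1098 and 931 CPM in EN, a call lost on copies. Mmp7, which activates defensins, fell from 137 to 19.7 CPM. Ang4, an antimicrobial ribonuclease, fell from 47.0 to 9.98 CPM. Defa6 rose, with 92.9, 84.1, 82.0 and 68.2 CPM in CV1 to CV4 and 155, 206, 152 and 109.8 CPM in EN1 to EN4. The antimicrobial lectins Reg3a and Reg3b rose from 39.4 to 2189 CPM and from 870.2 to 4529.8 CPM, whereas Reg3g had 2499.5 ± 76.9 CPM in CV and 2605 ± 163 CPM in EN (SD, n = 4). For Reg3g the 95% interval of the log2 fold change was -0.04 to 0.16. Enterocytes also express the Reg3 lectins, so they are not specific to Paneth cells.

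Genes linked to epithelial repair and to fetal epithelium were lower in EN: of 10 transcripts 8 fell, 7 by over 2-fold, and 1 rose (relative median -2.24). Ly6a (Sca-1) had 31.3, 36.0, 38.3 and 31.8 CPM in CV1 to CV4 and 1.07, 2.57, 2.32 and 1.44 CPM in EN1 to EN4. Clu, clusterin, fell from 22.4 to 2.89 CPM and Il1rn from 20.9 to 2.9 CPM. Sprr1a, the member that rose, had 0.539, 0.801, 0.928 and 0.241 CPM in CV and 1.88, 1.93, 1.25 and 1.44 CPM in EN, and its call was lost with spike-ins, with DESeq2, on log2(TPM + 1), with a replicate block and without CV1, CV2, CV4, EN1, EN2 or EN4 (log2 fold change 1.08 to 1.50 without those). In junctions, 22 of 32 transcripts were higher and 5 lower, and the tight junction claudins differed by member. Cldn15, a pore of the villus, rose from 205, 197, 198 and 206 CPM in CV to 1014, 1074, 1127 and 1045 CPM in EN, and Cldn3 from 137 to 390.2 CPM. Evpl, envoplakin, rose from 5.95 to 39.4 CPM. Cldn2, a pore of the crypt, fell from 737, 759, 749.9 and 736 CPM in CV to 32.0, 34.3, 32.3 and 39.4 CPM in EN.

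In antigen presentation and interferon response, 23 of 43 transcripts were higher and 6 lower. H2-T3, the nonclassical class I molecule known as the TL antigen of gut epithelium, had 4.18, 4.54, 4.11 and 3.98 CPM in CV1 to CV4 and 142, 131, 133 and 135 CPM in EN1 to EN4. The factor Irf1 rose from 39.4 to 135 CPM and Parp14 from 13.4 to 91.5 CPM. H2-Ab1, of class II, had 23.2, 23.2, 23.7 and 25.9 CPM in CV and 2.01, 1.28, 0.892 and 1.58 CPM in EN, and Bst2 fell from 14.9 to 1.2 CPM. Among lysosomal genes 29 of 41 were lower and 6 higher (own median 0.39 on copies). Ctss, a cathepsin of antigen processing, was the largest rise, from 7.95, 9.08, 8.88 and 9.04 CPM in CV to 147, 139.8, 139 and 146 CPM in EN, and Lgmn and Ctsl fell from 200.5 to 34.1 CPM and from 162 to 36.0 CPM.

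Genes of cells outside the epithelium were at low levels. Of 10 transcripts tested, 3 were higher in EN and 2 lower, against 35.2% and 41.2% of all transcripts. Of the 5 markers of such cells, Pecam1 was not analysed here. The 4 measured markers summed to 5.42 to 7.68 CPM in CV and 23.5 to 29.4 CPM in EN. Vim, vimentin, rose from 3.37, 2.67, 2.78 and 3.01 CPM in CV to 20.8, 26.1, 20.5 and 25.9 CPM in EN. Ptprc (CD45), which defines blood cells, had 1 count over the CV libraries and 67 over the EN libraries, and Des, of muscle, 85 and 1. Other members of the list went both ways. Itgam rose, with 132 counts in CV and 363 in EN, and Coro1a fell, with 39 and none. Cd14 had 117 and 53 counts and was not called. Tuft cells also express Ptprc and immune genes, and the part of such cells in the immune genes above was not tested.

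At the top of the range, the 10 transcripts with the highest TPM took 10.0% to 10.3% of all TPM in CV and 15.2% to 15.9% in EN, and only Fabp1 and Eef1a1 belonged to both sets. In EN they included Reg1, Fabp1, Eef1a1, Reg3b, Adh1, Apoa4, Fabp2, Gsta1 and Sis. Reg1 led with 42570.2 ± 4291 TPM in EN, against 238 ± 25.5 TPM in CV (SD, n = 4). In CV they were Fabp1, Eef1a1, the histones Hist1h4i and Hist1h2bq, LOC100862455, the ribosomal proteins Rps12, Rps18, Rplp1 and Rpl32, and Reg3g. Hist1h2bq fell from 9092 ± 893 TPM in CV to 546 ± 54.0 TPM in EN and Hist1h4i from 14344 ± 1038 TPM to 4002 ± 474 TPM. Histone genes are near-identical copies, so these transcripts may hold reads of others.

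For 705 transcripts (7.59% of those tested) the 95% interval of the log2 fold change lay within 0.26 of 0. The most abundant of them by TPM included Eef1a1, an elongation factor, the ribosomal proteins Rplp1, Rps14 and Rpl9, and Reg3g. Eef1a1 had 15069.8, 15239.9, 15337 and 14373 CPM in CV1 to CV4 and 16003, 16893, 16623 and 17225 CPM in EN1 to EN4, with an interval of 0.09 to 0.22. These values hold for TMM scaling only: with spike-ins Eef1a1 was at -0.27 on the log2 scale, and on copies Rps14 was at 0.77.

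Of 414 genes with several transcripts tested, 15 had a transcript that was higher and another that was lower in EN, and in 7 of them at least 1 of these changed over 2-fold. Ipo5, a nuclear import receptor, and Tpm1, a tropomyosin, were picked here after their values were seen. For Ipo5, NM_023579.4 fell from 281 to 15.6 CPM and XM_006519540.2 rose from 34.2 to 67.0 CPM. For Tpm1, NM_001164250.1 fell from 48.9 to 11.2 CPM and NM_001164253.1 rose from 187 to 298 CPM. Reads that fit several transcripts of a gene are shared out by an estimate, so such values are less certain than those of a gene with a single transcript.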

How the data were processed

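Total RNA of CV, ENR and EN organoids, 4 libraries each, was depleted of ribosomal RNA and sequenced in pairs with strand kept. The same amount of RNA and of spike-in went into each library. The authors deposited kallisto estimated counts (version 0.43.0 in the submitters' processing notes) per RefSeq transcript, in an index restricted to transcripts whose proteins were quantified by mass spectrometry, so genes outside it were not analysed here. The authors also deposited TPM values and mRNA copies, a signal that they set from the spike-ins. The ATAC, histone mark and Hnf4g tables were not used here.

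Expected counts were rounded to whole numbers (23.9% were not whole), and a transcript was tested if 4 or more of the 12 libraries had a count over 0. edgeR 4.0.16 (R 4.3.3) was fitted to all 12 libraries with TMM normalization, and the contrast of EN with CV was tested with the quasi-likelihood test. A transcript was called changed at a Benjamini-Hochberg adjusted p under 0.01, and glmTreat tested for a change over 2-fold. The steps were checked on simulated counts. Alternatives were other size factors, DESeq2 1.42.0, limma 3.58.1 on log2(TPM + 1), log2(TPM + 5) and log2(copies + 1), other filters, EN and CV libraries only, a replicate block and leaving out each library.

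Fitted fold changes were not printed where a culture had at most 3 counts per library. There, pooled counts over the normalized library sizes were compared with 95% exact counting intervals, or against 3 counts for a culture at 0. Counting intervals and floors cover counting error only.

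Transcripts were named by rule: the 12 largest rises and falls, the 8 highest transcripts at or under 3 counts in 1 culture, the 10 highest TPM of each culture, the 3 largest changes in the direction of each list's median and the largest against it, the markers, and the 6 highest stable transcripts. Other members were named where a list's account needed them. A part of the rule on genes with a transcript over 2-fold each way gave no gene. Some transcripts picked by the rule are not reported here. The markers, the 44 lists and the rule were chosen with earlier results of these data known.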

Additional observations from a re-analysis of the deposited data

Results flagged for a closer look

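Of 456 groups of 4 libraries examined, 22 had a highest or lowest library whose gap to the nearest other exceeded Dixon's 95% critical value for 4 values. Chance flags about 1 group in 20. The flagged library was EN3 in 6 groups, CV4 in 5, EN2 in 4, CV1, CV2 and EN1 in 2 each, and EN4 in 1.

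EN3 was the low library for several genes that rose in EN. Chgb, an enteroendocrine granule protein, had 465 CPM in EN3 against 812 to 868 CPM in the other EN libraries, Pdzk1 had 81.0 CPM against 93.1 to 95.3, and Vil1 had 2102 CPM against 2265 to 2290.2. Among genes that fell, EN3 had 9.10 CPM of Psat1 (others 11.8 to 12.1), 26.6 CPM of Mrps5 (34.4 to 35.8) and 92.8 CPM of Rbbp7 (101 to 103).

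CV4 was the high library for the stem cell genes Olfm4, with 20.5 CPM against 7.14 to 8.94, and Smoc2, with 325 CPM against 296 to 299.9. It was also high for Fcgbp, of goblet cells, with 637 CPM (549 to 551), and for Farsb with 208 CPM (194 to 195), and low for LOC100862455 with 1491 CPM (1656 to 1672). All 4 values of each of these genes in CV lay on the same side of all EN values.

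EN2, the shallowest library, was low for Lgr5 with 0.642 CPM (2.14 to 2.28), which is 3 counts, and for Prpf40b with 3.43 CPM (5.17 to 5.47). It was high for Axin2 with 1.71 CPM (1.01 to 1.07) and for BC089597 with 49.7 CPM (48.1 to 48.3). The other genes were Bmp3 in CV1 with 5.93 CPM (3.71 to 3.86), Pbk in CV1 with 45.6 CPM (51.7 to 52.5), Krt7 in CV2 with 165 CPM (153 to 155), Atp5o in CV2 with 209.7 CPM (199 to 200.1) and Gsta1 in EN4 with 3846 CPM (3578 to 3597).

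For whole libraries, the summed mRNA copies of EN1 were 2546655 against 1554679 to 1668019 in the other EN libraries, and the TMM factor of EN1 was 0.842 against at most 0.830.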

How the results depend on the processing

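The count of changed transcripts stayed within 1.5 times 7096, and that of changes over 2-fold within 1.5 times 2554, under each alternative run. Changed transcripts ranged from 5515 (copies) to 7598 (adjusted p under 0.05). Leaving out 1 library gave 6904 to 6994 changed, with the split of higher to lower calls moving little. The split moved by over 10 percentage points with spike-ins (1473 higher and 4292 lower), on log2(TPM + 1) (2268 and 4985), on log2(TPM + 5) (2274 and 4976) and on copies (4315 and 1200). DESeq2 gave 3401 higher and 3537 lower, and the EN and CV libraries alone 3371 and 3543.

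Of the transcripts named by the rule, 8 turned in direction on copies, where the median of all transcripts was 0.62: Krt7 0.067, Lss 0.15, Krt18 0.17, LOC100862455 0.24, Rpl32 0.26, Krt23 0.31, Rps12 0.35 and Rps14 0.77. Of others named in the text, Ezh2 (0.10), Mep1a (0.09) and Cdx2 (0.71) turned on copies as well, Ctnnb1 and Ldha with spike-ins and on TPM, and Krt19 with spike-ins. Eef1a1 turned to -0.27 with spike-ins and to -0.17 on both TPM scales, and Reg3g to -0.27 on both TPM scales. Keratins turned in relative median to -0.45 on copies and to -0.000125 without the filter (-0.016 to 0.053 without single libraries), glycolysis to 0.023 on copies (-0.054 to 0.019) and Paneth cell genes to 0.047 on copies (-0.049 to 0.013). Genes of cells outside the epithelium gave 0.28 on log2(TPM + 1), 0.24 on log2(TPM + 5), 1.87 with at least 10 counts and 1.26 without CV1, in a range of -0.95 to 1.26 without single libraries. Leaving out single libraries ended the call of Bcl9 (-0.76 without CV3 and -0.72 without EN4), of Sprr1a (1.08 to 1.50 without CV1, CV2, CV4, EN1, EN2 or EN4) and of a low transcript of Ogdh (3.22 to 3.94 without CV1, CV2, CV4, EN1, EN3 or EN4). Sprr1a also lost its call with spike-ins (0.97), DESeq2 (1.44) and log2(TPM + 1) (0.76), Ogdh with DESeq2 and on both TPM scales, and Bcl9 on copies. In all, 21 of the transcripts named by the rule lost their call on copies without a turn, 10 with spike-ins and at most 3 under each other alternative. Those with spike-ins included Gsk3a, Eif4a2, Mrpl27 and Lsm14b, and those on copies Lyz1, Rps2, Rpsa and Rbbp7. The causes were not tested.

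With the replicate number as a block, 7063 transcripts changed and 2536 by over 2-fold, and Sprr1a was the named transcript whose call was lost. The labels do not say whether equal numbers pair the samples. Deviations of EN and CV libraries of the same number correlated with r of -0.05, 0.11, 0.10 and 0.00. EN2 and EN3, but not EN1 and EN4, correlated best with their own number, a hint from the data and not the design.

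Depth limits transcripts near 3 counts, which stand for 0.36 to 0.64 CPM. The number of transcripts at or under 3 counts in every CV library was 341, and in every EN library 410.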
